A study of Mus musculus with 24 samples.

Results

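Obstructed kidneys of mice on a late course of istradefylline were compared with obstructed kidneys of mice given vehicle. These groups, UUO late and UUO vehicle, were chosen by their labels and held 4 libraries each, 8 of the 24 in the series. UUO is unilateral ureteral obstruction, in which 1 ureter is blocked. All libraries were of whole left kidneys of wildtype mice. The other groups, also of 4 libraries each, were UUO early, sham vehicle, sham early and sham late. Strain, sex, age, dose, days of treatment and hour of collection are not in the labels. Nor do the labels state that each library is a different mouse, so p-values measure only the spread between these libraries, which may be technical.

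Istradefylline blocks the adenosine receptor encoded by Adora2a, which raises cyclic AMP when adenosine binds it. Adenosine accumulates outside cells where tissue is injured or short of oxygen, and the receptor is found on vascular and immune cells. Obstruction damages the tubules and brings in macrophages and matrix-producing cells. The kidney also runs a circadian clock, a feedback loop in which the proteins of Arntl and Clock drive the period and cryptochrome genes, whose proteins then repress that drive.

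Levels are FPKM, fragments scaled by transcript length and by the total of mapped fragments. Genes at 1 FPKM or more in at least 4 of the 8 libraries were tested, 12651 of 14407. Log2 differences are UUO late minus UUO vehicle on the log2(FPKM + 1) scale, which understates the change of low genes. A gene is said to have risen or fallen only where limma gave an adjusted p under 0.05. Library values are in the order 1 to 4, and values after ± are SDs with n = 4.

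The 9 kidney markers were all at 1 FPKM or more in each of the 8 libraries. Across genes, library pairs correlated at r = 0.9154 to 0.9765, and genes are not independent replicates. Of the variance, 29.42% lay on a first principal component that ran from -32.1 in UUO vehicle 1 to 43.5 in UUO late 4. UUO vehicle 3 had the highest sum over the B and plasma cell list, 179 FPKM against 34 to 55 FPKM in the other libraries. It also had the highest sum over the fat list, 251 FPKM against 17.2 to 164 FPKM. UUO late 4 had the highest sum over the neutrophil list, 175 FPKM against 24.1 to 112 FPKM, and UUO vehicle 1 over the pancreas list, 78.5 FPKM against 22.6 to 45.6 FPKM. The skeletal muscle list summed to 5.73 to 11.5 FPKM, with Myh4 at 0 in 6 libraries. The part of these markers in the results was not tested. In bulk tissue, fewer cells of a type and less RNA per cell cannot be told apart. Sequencing depth is unknown.

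In UUO late against UUO vehicle 3 genes passed the threshold, 0.0237% of those tested. Micu3 rose (0.0079%), and Zfp317 and Syvn1 fell (0.0158%). Without adjustment, 849 genes had p under 0.05 (6.71%), of which 558 were higher (4.41%) and 291 lower (2.3%) in UUO late. Libraries of UUO late all lay above those of UUO vehicle for 397 genes (3.14%) and all below for 157 (1.24%). The median log2 difference over all tested genes was 0.04, and 60.22% of them were above 0.

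Zfp317 (ENSMUSG00000057551), which encodes a zinc finger protein, lies at GRCm38 chromosome 9, 19622102 to 19649731. It was at 5.91, 6.53, 7.12 and 8.19 FPKM in UUO vehicle and 1.65, 1.82, 1.91 and 1.54 FPKM in UUO late. Every UUO late library was below every UUO vehicle library. The log2 difference was -1.53 (SE 0.11, adjusted p = 0.00612). In the other 4 groups the gene ranged from 1.03 to 5.31 FPKM, so the UUO vehicle libraries were the highest of the 24.

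Syvn1 (ENSMUSG00000024807) encodes a ubiquitin ligase that marks misfolded proteins of the endoplasmic reticulum for degradation, and lies at chromosome 19, 6046576 to 6053712. It was at 11.7, 10.7, 12.2 and 11.5 FPKM in UUO vehicle and 4.72, 5.51, 5.6 and 4.94 FPKM in UUO late. The groups did not overlap, and the log2 difference was -1.02 (SE 0.09, adjusted p = 0.00746). With the spread taken from all 12 UUO libraries or all 24 libraries its call ended, at an adjusted p of 0.496 and 0.176 by limma. Other groups held both low and high libraries. UUO early was at 11.6, 10.5, 4.24 and 12.1 FPKM, and sham vehicle was at 9.82, 6.41, 4.94 and 10.7 FPKM.

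Micu3 (ENSMUSG00000039478) encodes a regulator of the mitochondrial calcium uniporter and lies at chromosome 8, 40307458 to 40386308. It was at 0.515, 0.649, 0.518 and 0.603 FPKM in UUO vehicle and 2.61, 2.46, 2.49 and 3.25 FPKM in UUO late. Without overlap between groups, the log2 difference was 1.23 (SE 0.10, adjusted p = 0.00746). Micu3 passed the filter on low values only through the UUO late libraries, and with no filter the adjusted p was 0.00619 by limma. Sham early libraries, at 2.35 to 3.17 FPKM, lay near those of UUO late, while sham late libraries were at 0.669 to 0.93 FPKM and UUO early libraries at 0.64 to 0.813 FPKM.

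**Figure D1:**
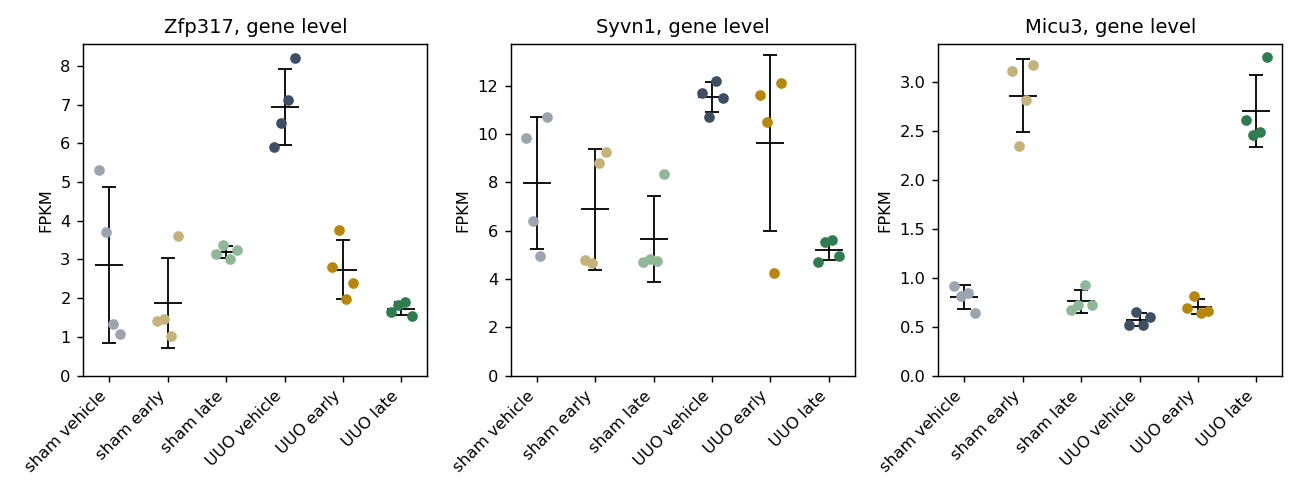
Gene-level FPKM of Zfp317, Syvn1 and Micu3 in all 24 libraries by group, with points for libraries, a line at the mean and bars for the SD (n = 4). Zfp317 is highest in UUO vehicle, Syvn1 has low and high libraries within most groups, and Micu3 is high in UUO late and sham early.

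The transcript values of these genes were split by group. Switching transcripts are those with at least 3 libraries of either group at 0.05 FPKM or less while at least 3 of the opposite group had 0.5 FPKM or more. Such a transcript was found in 411 of the 12651 tested genes and in all 3 genes past the threshold. Micu3-203, with 8 exons at chromosome 8, 40354303 to 40386308, was listed at 0 in every UUO vehicle, UUO early, sham vehicle and sham late library. It was at 4.59, 4.91, 5.19 and 7.19 FPKM in UUO late and at 4.34 to 6.75 FPKM in sham early. The longer coding transcript, Micu3-201, with 15 exons, was at 1.35 to 1.67 FPKM in UUO vehicle and 0.909 to 2.03 FPKM in UUO late, so its groups overlapped.

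Zfp317-202 was at 7.17, 7.91, 8.59 and 9.93 FPKM in UUO vehicle and 0.973, 1.21, 1.96 and 0.0997 FPKM in UUO late. Zfp317-201, with the same coding length, was listed at 0 in UUO vehicle and at 1.19, 2.14, 0 and 1.5 FPKM in UUO late. The transcripts of Syvn1 also differed by group. Syvn1-207 was listed at 0 in UUO vehicle and at 3.16, 4.22, 3.08 and 2.15 FPKM in UUO late. Syvn1-204 was at 0.438, 12.2, 14.1 and 13.4 FPKM in UUO vehicle and 0.777 to 1.69 FPKM in UUO late, and UUO vehicle 1 instead had Syvn1-203 at 15 FPKM. A listed 0 can be a failed estimate, and the part of transcript assignment in the 3 calls was not tested. With genes that have a switching transcript left out, 0 genes passed by limma, and 808 had an unadjusted p under 0.05. That setting takes out all 3 genes past the threshold by its rule, so it is no test of them. Without UUO vehicle 3, 0 genes passed and 534 had an unadjusted p under 0.05, with an adjusted p of 0.052 for Zfp317, 0.052 for Syvn1 and 0.052 for Micu3 by limma.

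**Figure D2:**
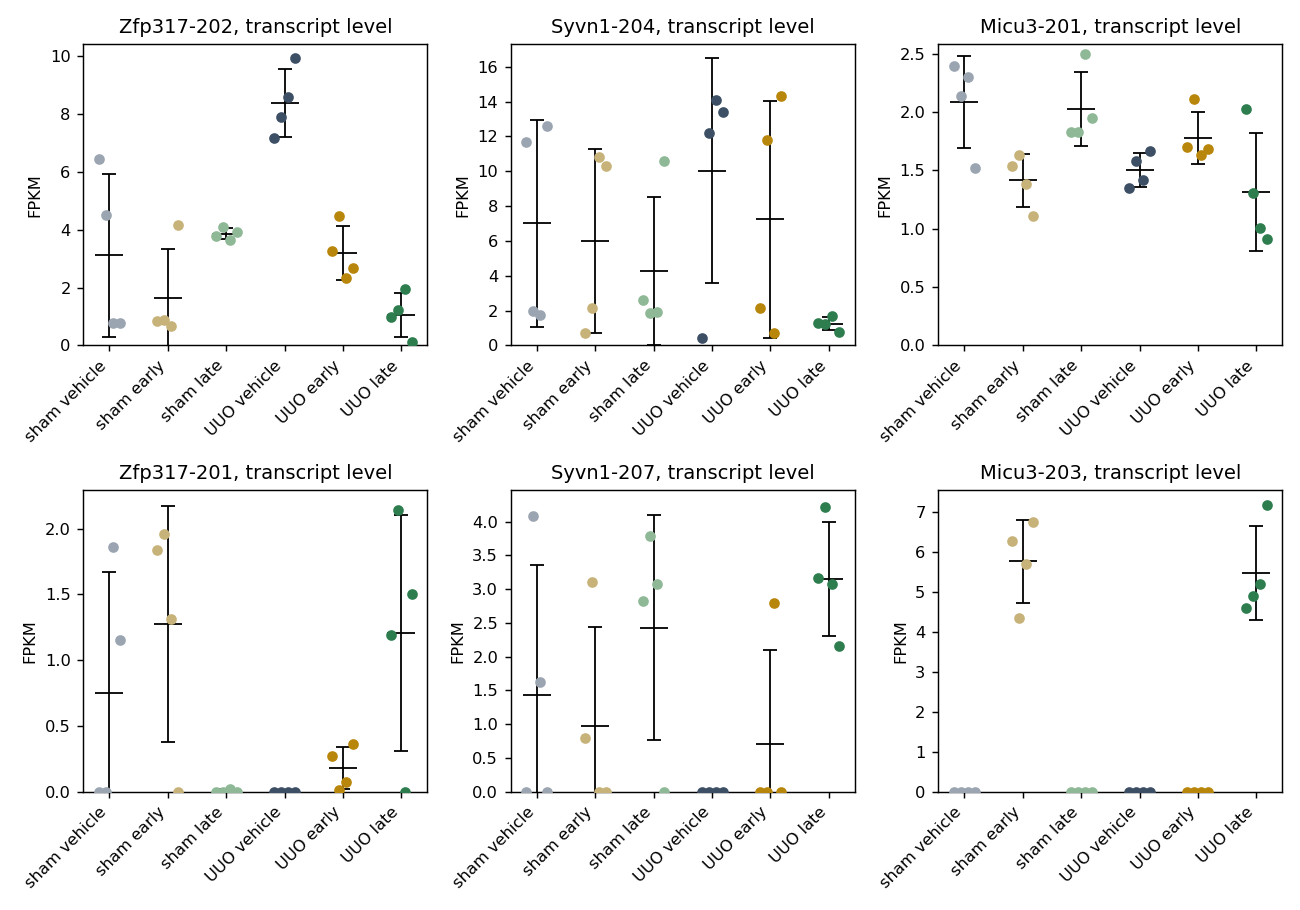
FPKM of transcripts of Zfp317, Syvn1 and Micu3 in all 24 libraries, with points for libraries, a line at the mean and bars for the SD (n = 4). Micu3-203 is listed at 0 in 4 of the 6 groups, while Micu3-201 overlaps between UUO vehicle and UUO late.

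None of the genes with the next smallest p-values was past the threshold. Cdh1, the epithelial adhesion protein E-cadherin, was at 56.6, 59.1, 55.1 and 63 FPKM in UUO vehicle and 86.1, 79.9, 83.7 and 86.6 FPKM in UUO late (log2 0.52, SE 0.08, adjusted p = 0.265 by limma). No library of either group reached the other. Ckmt1, a mitochondrial creatine kinase, had means of 18.4 ± 3.15 and 33.4 ± 4.39 FPKM (log2 0.83). Mal, a membrane protein of apical sorting, had means of 80.2 ± 6.04 and 116 ± 11.2 FPKM (log2 0.53).

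Also higher by p-value in UUO late were Olfm4, a secreted glycoprotein (log2 0.80), Efhd1, a calcium-binding mitochondrial protein (0.75), and Klf9, a glucocorticoid-responsive transcription factor (0.73). Others were Tmem30b, a subunit of lipid flippases (0.55), Epn3, an endocytic adaptor (0.54), and AI661453 (0.79). Efhd1-201 did not follow its gene. It was at 20.2, 25.4, 2.24 and 28.2 FPKM in UUO vehicle and 5.85, 6.54, 5.9 and 4.11 FPKM in UUO late. AI661453-201 was at 5.73, 0, 5.63 and 7.63 FPKM in UUO vehicle and 0 to 0.391 FPKM in UUO late. AI661453-202 was at 0.663 to 4.61 FPKM and 5.52 to 6.7 FPKM. The listed transcripts of Klf9, Tmem30b and Epn3 were higher in UUO late. The part of transcript assignment in these differences was not tested. On the lower side, Swi5, a recombination repair factor, was at 27.6, 26.2, 29.1 and 29.3 FPKM in UUO vehicle and 16, 17.2, 18.3 and 17.4 FPKM in UUO late. Its groups did not overlap, with a log2 difference of -0.67 (SE 0.08, adjusted p = 0.0595 by limma). Ndufs6, a subunit of respiratory complex I, had means of 102 ± 4.32 and 71.3 ± 10.4 FPKM (log2 -0.53). Park7, a redox-sensitive protein, had means of 74.1 ± 5.8 and 48.3 ± 9.64 FPKM (log2 -0.62). The remaining lower genes were Snrnp35, of the minor spliceosome (log2 -0.96), Mrpl17, of the mitochondrial ribosome (-0.59), Dynll2, a dynein light chain (-0.58), Hypk (-0.55) and Gpatch4 (-0.46). Swi5-207 and Ndufs6-201 were lower in every UUO late library than in any UUO vehicle library. Park7-203 was at 0.164, 0.421, 0.152 and 0.142 FPKM in UUO vehicle and 84.1, 71.1, 0.125 and 0.263 FPKM in UUO late. Hypk-204 was at 0.895 to 18.3 FPKM and 2.05 to 13.5 FPKM. For the lower genes too, the part of transcript assignment was not tested.

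**Figure D3:**
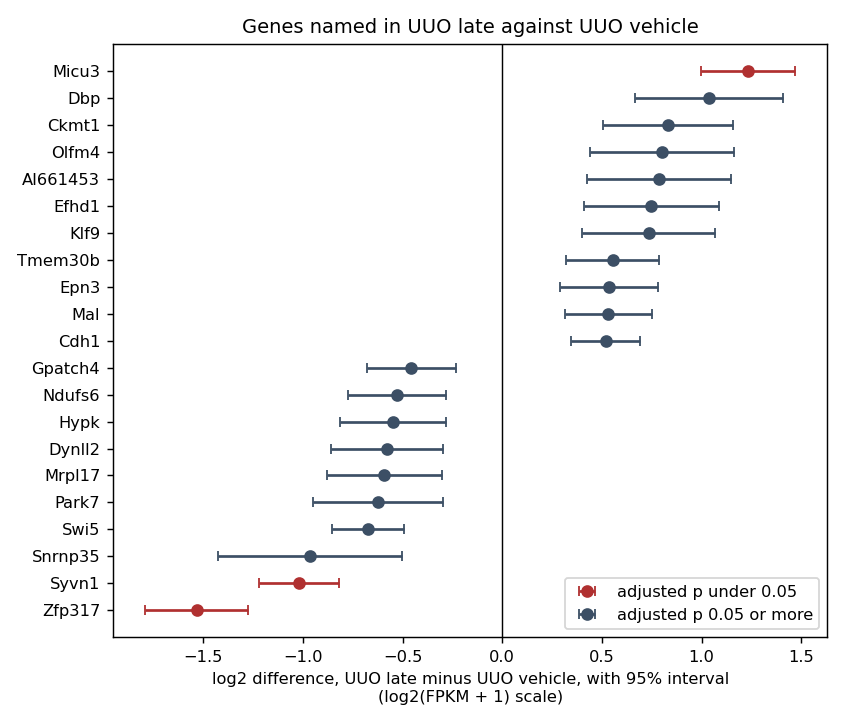
Log2 differences with 95% intervals for the genes named in UUO late against UUO vehicle, on the log2(FPKM + 1) scale. The 3 genes past the threshold are in red, and Swi5 and Dbp are among those that missed it.

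Several clock genes, Dbp and Per2 among them, were at higher levels in UUO late, none of them past the threshold. Of 18 genes on the circadian clock list, 17 were tested, and 9 were higher and 1 lower at an unadjusted p under 0.05, against 4.41% and 2.3% of all tested genes. UUO late lay wholly above UUO vehicle for 7 members and wholly below for 1, against 3.14% and 1.24% of all tested genes. Ciart, counted among the higher members, passed the filter on low values only through the UUO late libraries. Arntl, lower in UUO late without overlap, was left out by that filter and is in neither count. The median log2 difference of the list was 0.42, and 0.33 to 0.47 with each library left out in turn. This list and the gene lists below were chosen with earlier results of these data known. Their shares beside those of all tested genes are therefore descriptions, not tests.

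Promoters of clock genes are shown because the proteins of Arntl and Clock bind the E-box CACGTG and those of Dbp and Nfil3 bind D-box letters such as TTATGTAA. RefSeq promoters on GRCm38.p6, from 250 bases before to 50 bases after a gene's start, were matched by symbol for 16 of the 18 genes. Capitals mark an E-box in Ciart and Per1 and a D-box in Per3, searched on both strands, and Dbp held neither in this window. Ciart is shown from chr3:95882179-95882478 on the minus strand, Per3 from chr4:151044616-151044915 on the minus strand, Per1 from chr11:69098699-69098998 on the plus strand and Dbp from chr7:45704997-45705296 on the plus strand.
Ciart: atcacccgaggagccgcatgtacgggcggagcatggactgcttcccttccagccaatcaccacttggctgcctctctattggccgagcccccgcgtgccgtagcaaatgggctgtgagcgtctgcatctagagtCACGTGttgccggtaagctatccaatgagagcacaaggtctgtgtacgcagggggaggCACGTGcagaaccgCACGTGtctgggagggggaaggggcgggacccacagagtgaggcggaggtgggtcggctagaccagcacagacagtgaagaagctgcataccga
Per3: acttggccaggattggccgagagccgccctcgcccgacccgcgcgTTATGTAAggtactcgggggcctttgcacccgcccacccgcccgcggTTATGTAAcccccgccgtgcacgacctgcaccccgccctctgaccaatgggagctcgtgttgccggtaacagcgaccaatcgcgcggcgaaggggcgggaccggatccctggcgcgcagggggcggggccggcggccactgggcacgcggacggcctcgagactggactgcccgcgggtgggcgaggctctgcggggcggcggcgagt
Per1: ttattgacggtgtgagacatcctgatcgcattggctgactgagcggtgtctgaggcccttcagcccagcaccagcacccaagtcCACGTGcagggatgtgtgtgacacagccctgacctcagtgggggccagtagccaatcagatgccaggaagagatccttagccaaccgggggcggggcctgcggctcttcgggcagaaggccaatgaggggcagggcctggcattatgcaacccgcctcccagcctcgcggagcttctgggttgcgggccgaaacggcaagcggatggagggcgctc
Dbp: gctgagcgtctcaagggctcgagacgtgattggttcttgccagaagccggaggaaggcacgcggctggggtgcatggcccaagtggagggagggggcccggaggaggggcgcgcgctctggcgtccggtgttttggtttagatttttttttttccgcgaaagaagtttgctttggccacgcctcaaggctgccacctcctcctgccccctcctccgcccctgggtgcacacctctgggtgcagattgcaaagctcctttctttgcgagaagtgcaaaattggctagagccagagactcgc
These 16 genes had 21 promoters, of which 6 held an E-box and 1 a D-box, and the second promoter of Per1, not shown, held neither. Of all 32851 promoters of this length, 7.15% held the E-box and 0.94% the D-box. A match describes letters, not binding.

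Dbp, a transcription factor driven directly by the clock, was at 19.2, 27.2, 22.2 and 32.9 FPKM in UUO vehicle and 53.9, 53.9, 45.3 and 56 FPKM in UUO late. Its groups did not overlap, and the log2 difference was 1.04 (SE 0.16, adjusted p = 0.355 by limma). The period gene Per2 was at 2.23, 2.84, 2.26 and 2.84 FPKM in UUO vehicle and 6.32, 4.87, 4.42 and 4.26 FPKM in UUO late (log2 0.75, SE 0.13). Per3 was at 2.32, 3.12, 2.12 and 3.87 FPKM in UUO vehicle and 6.64, 4.59, 4.73 and 5.6 FPKM in UUO late (log2 0.74, SE 0.17). Both period genes were separated by group.

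Ciart, a repressor of the Arntl and Clock proteins, was at 0.928, 0.847, 1.02 and 1.36 FPKM in UUO vehicle and 2.1, 3.38, 1.97 and 2.74 FPKM in UUO late (log2 0.79, SE 0.15). Nr1d1, the nuclear receptor that represses Arntl, was at 17.6, 24.9, 19.7 and 24.5 FPKM in UUO vehicle and 28.5, 38.7, 31.6 and 46.5 FPKM in UUO late (log2 0.71). Its relative Nr1d2 (log2 0.42) and the cryptochrome Cry2 (0.37) were also higher without overlap. Hlf and Per1 were higher at an unadjusted p under 0.05 with overlapping libraries.

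Of the other tested clock genes, Tef was at 10.6, 7.05, 14.3 and 0.542 FPKM in UUO vehicle and 13.4, 13.3, 11.7 and 10.6 FPKM in UUO late (log2 0.95), and Bhlhe41 (log2 0.41), Cry1 (0.28), Rora (0.22) and Bhlhe40 (0.11) overlapped between groups as it did. Nfil3, a repressor that competes with Dbp, was at 6.29, 7.29, 7.02 and 6.8 FPKM in UUO vehicle and 5.43, 5.59, 5.08 and 5.57 FPKM in UUO late (log2 -0.29), without overlap. Arntl was below the filter and not tested, at 1.29, 1.11, 1.32 and 0.681 FPKM in UUO vehicle and 0.284, 0.465, 0.59 and 0.41 FPKM in UUO late, also without overlap. Npas2 (log2 -0.22) and Clock (-0.13) overlapped between groups. The hour of collection is not in the labels and cannot be told apart from the course.

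**Figure D4:**
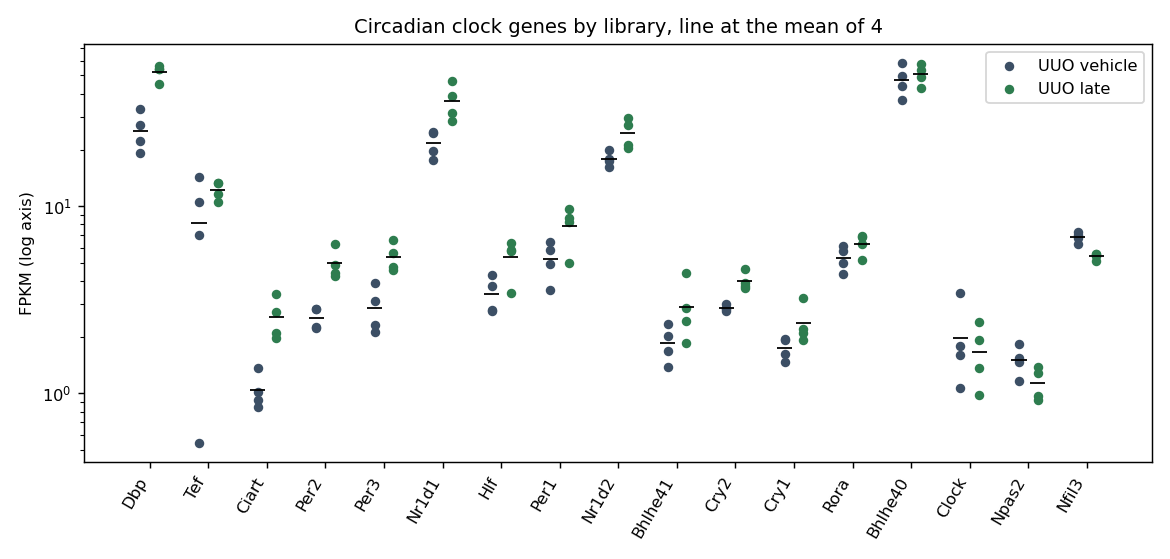
FPKM of the 17 tested clock genes on a log axis in UUO vehicle and UUO late libraries, ordered by log2 difference, with a line at the mean of 4. Dbp, Ciart, Per2, Per3 and Nr1d1 are higher in every UUO late library than in any UUO vehicle library, and Nfil3 is lower.

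Intercalated cells are the acid and base secreting cells of the collecting duct. All 12 tested members of their list had a log2 difference above 0, against 60.22% of all tested genes. At an unadjusted p under 0.05, 6 were higher and 0 lower, against 4.41% and 2.3% of all tested genes. With each library left out, the count of higher genes ran from 4 to 8. The median was 0.56, and 0.43 to 0.65 with each library left out. Hepacam2, a cell adhesion protein, was at 1.29, 1.99, 1.88 and 1.85 FPKM in UUO vehicle and 3.24, 2.85, 2.59 and 3.59 FPKM in UUO late. The receptor kinase Kit was at 1.65, 1.6, 1.87 and 2.5 FPKM in UUO vehicle and 3.29, 2.85, 2.92 and 4.45 FPKM in UUO late. Both were separated by group. Foxi1, the transcription factor of these cells, had means of 13 ± 3.33 and 19.7 ± 2.76 FPKM (log2 0.57), and its groups overlapped.

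In neighbouring segments, 3 of 11 principal cell genes were higher and 0 lower at an unadjusted p under 0.05. Of all tested genes, 4.41% were higher and 2.3% lower at that level. The principal cell median was 0.30, and 0.16 without UUO late 1. Hsd11b2, the enzyme that shields the mineralocorticoid receptor from glucocorticoids, was at 41.6, 43, 40.1 and 59.2 FPKM in UUO vehicle and 107, 78, 69.4 and 50.3 FPKM in UUO late, with UUO late 4 inside the UUO vehicle range. Of 12 loop of Henle genes, 2 were higher, against the same 4.41%. That count ran from 0 to 8 with each library left out and was 8 without UUO late 4. The loop transporter Slc12a1 was at 26.7, 29.1, 12.8 and 29.5 FPKM in UUO vehicle and 89.8, 43.4, 43.8 and 27.4 FPKM in UUO late.

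Podocytes are the filtering cells of the glomerulus, and 4 of their 10 tested genes were higher and 0 lower at an unadjusted p under 0.05, against 4.41% and 2.3% of all tested genes. A log2 difference above 0 was seen for 6 of them, near the 60.22% of all tested genes, with a median of 0.13. Without UUO vehicle 1 the count of higher genes at an unadjusted p under 0.05 was 2. Nphs1, which encodes nephrin of the slit diaphragm, was at 1.78, 2.21, 1.7 and 2.09 FPKM in UUO vehicle and 3.54, 3.31, 2.89 and 2.91 FPKM in UUO late (log2 0.50, adjusted p = 0.531 by limma). Podxl, a surface sialomucin, had means of 23.5 ± 4.45 and 32.1 ± 1.98 FPKM. Both were separated by group, while Wt1 (log2 -0.11) and Synpo (-0.25) overlapped.

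At an unadjusted p under 0.05, 3 of 29 proximal tubule genes were lower and 0 higher, against 2.3% and 4.41% of all tested genes. The median of the list was -0.36, and 0 of the 29 had a log2 difference above 0, against 60.22% of all tested genes. Without UUO late 4 the median was 0.02. The phosphate transporter Slc34a1 was at 395, 189, 247 and 234 FPKM in UUO vehicle and 194, 317, 260 and 77.4 FPKM in UUO late, lowest in UUO late 4. Slc7a7, an amino acid exchanger, had means of 20.9 ± 4.33 and 14.3 ± 1.92 FPKM (log2 -0.51).

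Of 25 tubular injury genes, 1 was higher and 2 were lower at an unadjusted p under 0.05, against 4.41% and 2.3% of all tested genes. Havcr1, kidney injury molecule 1, was at 370, 339, 309 and 195 FPKM in UUO vehicle and 168, 230, 220 and 92.5 FPKM in UUO late (log2 -0.81, SE 0.31, adjusted p = 0.721 by limma). UUO vehicle 4 lay inside the UUO late range, and the log2 difference was -0.53 without UUO late 4. Spp1, which encodes osteopontin, was at 4280, 4900, 5430 and 4820 FPKM in UUO vehicle and 3990, 3520, 3900 and 3770 FPKM in UUO late (log2 -0.35), and its groups did not overlap. Lcn2, which binds iron-carrying siderophores, had means of 166 ± 69.8 and 163 ± 57.5 FPKM.

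Of the 36 extracellular matrix genes, 0 were higher and 0 lower at an unadjusted p under 0.05, against 4.41% and 2.3% of all tested genes. The median of the list was -0.10. The median ran from -0.34 without UUO late 4 to 0.12 without UUO late 1. Without UUO late 4 and UUO vehicle 1 together, an alternative chosen after seeing the data, 12 were lower and the median was -0.50. The collagen gene Col1a1 was at 86.1, 168, 128 and 148 FPKM in UUO vehicle and 65.8, 106, 129 and 214 FPKM in UUO late, and the 95% interval of its log2 difference was -0.92 to 0.67. Col3a1 (log2 -0.21), the myofibroblast actin Acta2 (-0.36), fibronectin Fn1 (0.26) and Tgfb1 (0.05) overlapped between groups. A p that misses the threshold does not show that the groups were alike.

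Clec9a, a receptor for dead cells on cross-presenting dendritic cells, was at 1.67, 0.91, 0.636 and 1.54 FPKM in UUO vehicle and 4.01, 4.93, 2.84 and 5.25 FPKM in UUO late (log2 1.27, SE 0.21, adjusted p = 0.45 by limma). Of 9 tested dendritic cell genes, 4 were higher at an unadjusted p under 0.05 and 0 lower, against 4.41% and 2.3% of all tested genes. Clec9a, counted among the higher genes, and Xcr1, also tested, passed the filter on low values only through the UUO late libraries. Without UUO late 4 or without UUO vehicle 1, 1 dendritic cell gene was higher. Mertk, a receptor for the clearance of dying cells, was at 6.4, 7.43, 6.01 and 8.09 FPKM in UUO vehicle and 11.3, 11.4, 10.3 and 16.9 FPKM in UUO late (log2 0.74). It was the 1 of 26 macrophage genes at that level, against the same shares of all tested genes, and the macrophage marker Adgre1 overlapped (log2 0.21).

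Of 35 interferon response genes, 4 were higher and 0 lower at an unadjusted p under 0.05, against 4.41% and 2.3% of all tested genes, with a median of 0.24. The count of higher genes ran from 2 to 6 with each library left out, was 8 at the same summed FPKM and 10 with the replicate block, and the median was 0.14 without UUO vehicle 1. Gbp7, an interferon-induced GTPase, had means of 9.78 ± 1.55 and 13.4 ± 1.14 FPKM. Of 36 chemokine and cytokine genes, 1 was higher and 3 were lower, against the same 4.41% and 2.3%. The death ligand Tnfsf10 had means of 9.8 ± 0.769 and 13.2 ± 0.583 FPKM, and the interleukin Il11 had means of 1.97 ± 0.494 and 0.965 ± 0.365 FPKM. Il11 passed the filter on low values only through the UUO vehicle libraries. Ccl2, which attracts monocytes, overlapped (log2 -0.04).

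Of 28 cytosolic ribosomal protein genes, 0 had a log2 difference above 0 and 10 were lower at an unadjusted p under 0.05. Of all tested genes, 60.22% were above 0 and 2.3% lower at that level. The median of the ribosomal list was -0.22. The count of lower ribosomal genes ran from 1 to 21 with each library left out, highest without UUO late 4. It was 19 with median-of-ratios scaling and 4 at the same summed FPKM. Rpl32, of the large subunit, was at 453, 502, 530 and 444 FPKM in UUO vehicle and 338, 341, 332 and 452 FPKM in UUO late. Of 33 oxidative phosphorylation genes, 4 were lower and 1 had a log2 difference above 0, against the same 2.3% and 60.22%. Their median was -0.16. With each library left out the count of lower genes ran from 1 to 7, and without UUO late 4 it was 1 and the median -0.06. Cox4i1, of respiratory complex IV, was at 269, 235, 264 and 231 FPKM in UUO vehicle and 219, 198, 211 and 163 FPKM in UUO late.

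**Figure D5:**
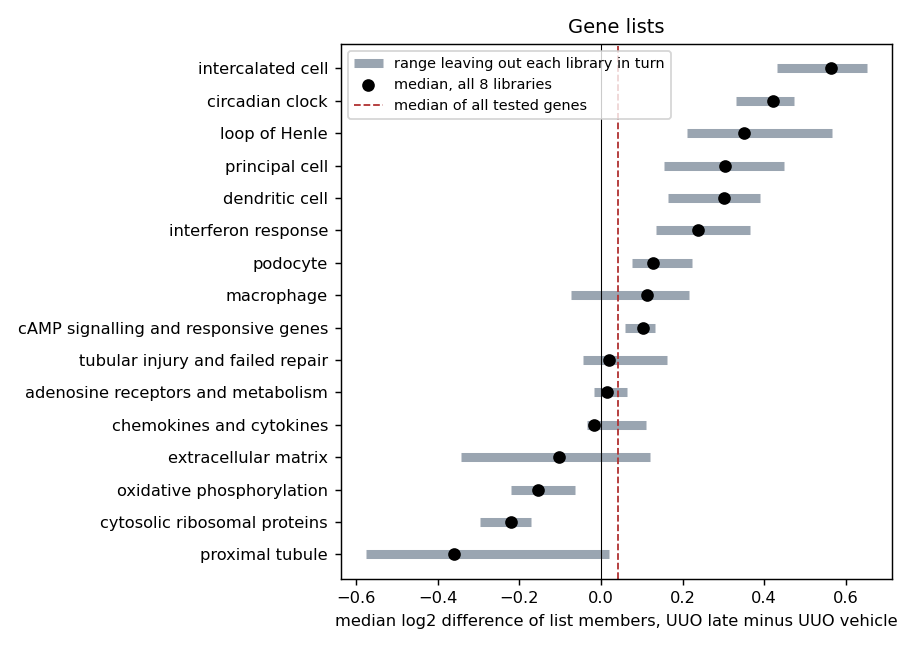
Median log2 difference of the tested members of gene lists (points), with the range when each library is left out in turn (bars) and the median of all tested genes (dashed line). The proximal tubule, extracellular matrix, macrophage, tubular injury, adenosine and chemokine ranges cross 0, and those of the other lists shown do not.

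Adora2a, the receptor the drug blocks, was at 3.06, 3.36, 3.7 and 4.31 FPKM in UUO vehicle and 2.62, 3.92, 3.1 and 4.68 FPKM in UUO late, and the 95% interval of its log2 difference was -0.39 to 0.34. Adora2b (log2 -0.17), Adora1 (0.16) and Nt5e, which makes adenosine from AMP (-0.10), also overlapped. Of 28 adenosine genes 1 was higher at an unadjusted p under 0.05, the adenosine deaminase binding peptidase Dpp4, with means of 10.1 ± 2.32 and 13 ± 1.08 FPKM. Of all tested genes, 4.41% were higher at that level. The count of adenosine genes ran from 0 to 2 with each library left out and was 0 with median-of-ratios scaling. Of 29 cyclic AMP genes 3 were higher at that level, against the same 4.41%. Prkar1b, a regulatory subunit of the cyclic AMP dependent kinase, was at 0.487, 0.193, 0.221 and 3.15 FPKM in UUO vehicle and 2.63, 2.94, 2.79 and 4.03 FPKM in UUO late, with UUO vehicle 4 inside the UUO late range. Prkar1b passed the filter on low values only through the UUO late libraries. Pde1a, which degrades cyclic nucleotides, had means of 4.3 ± 0.694 and 6.08 ± 0.907 FPKM.

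The late and early courses were compared in obstructed kidneys, with the UUO late libraries shared with the comparison above. Of 12696 genes tested, 3 rose in UUO late against UUO early (0.0236%) and 0 fell. At an unadjusted p under 0.05 were 612 genes (4.82%), 3.47% higher and 1.35% lower, and libraries did not overlap for 2.79% higher and 0.882% lower. Micu3 rose from 0.703 ± 0.0771 to 2.7 ± 0.372 FPKM (log2 1.12, adjusted p = 0.0225 by limma). Here too it passed the filter on low values only through the UUO late libraries. The histone gene Hist1h2ao rose from 9.36 ± 0.528 to 22.8 ± 2.34 FPKM (log2 1.19, adjusted p = 0.0153 by limma). Hist1h2ap rose from 10.8 ± 1.83 to 26.7 ± 1.71 FPKM (log2 1.25, adjusted p = 0.0238 by limma). Both histone genes belong to a family of near-identical copies, so their values are uncertain.

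Next by p-value between courses, with adjusted p from 0.0566 to 0.719, were Vldlr, a lipoprotein receptor (0.81), Vkorc1, of the vitamin K cycle (0.61), and Morf4l1 (0.46) on the higher side. On the lower side were Kctd12 (-3.74), the fat hormone Retn (-1.76), Nme2, a nucleoside diphosphate kinase (-0.75), Hspb2 (-0.59) and Ube2q2 (-0.38). Kctd12 ranged from 14.7 to 27.4 FPKM in UUO early and from 0 to 3.95 FPKM in UUO late. Dbp had means of 45.8 FPKM in UUO early and 52.2 FPKM in UUO late, a log2 difference of 0.20 with a 95% interval of -0.15 to 0.55. For Per2 the difference was -0.02, with an interval of -0.35 to 0.31. Without UUO early 2 or 3, or UUO late 2 or 3, 0 genes passed by limma, with 478 to 651 at an unadjusted p under 0.05. Without UUO early 1 or UUO late 1 there was 1 gene, and without UUO late 4 there were 9.

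Whether the late course differed between obstructed and sham kidneys was tested as an interaction, again with the same UUO libraries. The spread of this fit was taken over sham and obstructed libraries together, unlike above, and could be too small for the obstructed ones. Of 12882 genes 5 passed (0.0388%), 4 higher (0.0311%) and 1 lower (0.00776%). At an unadjusted p under 0.05 were 1914 genes (14.9%), 13.5% higher and 1.31% lower. The median interaction over all genes was 0.14, and -0.01 with median-of-ratios scaling, so interactions are to be read against that shift. Nphs1 had means of 2.04 and 1.24 FPKM in sham vehicle and sham late, against 1.94 and 3.16 FPKM in UUO vehicle and UUO late (interaction 0.95, adjusted p = 0.0331 by limma). Appl2, a Rab5-binding adaptor, had means of 5.82 and 3.25 FPKM in sham, against 6.16 and 6.75 FPKM in UUO (interaction 0.80, adjusted p = 0.0139 by limma). Micu3 had sham means of 0.804 and 0.759 FPKM (interaction 1.27, adjusted p = 0.000616 by limma), and again passed the filter only through the UUO late libraries.

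Zfp708 and Gm28557, which overlap each other on chromosome 13, were the other genes past the threshold, with interactions of 2.22 and -0.92. Zfp708 was listed at 0 in every UUO vehicle and sham late library. Ddx17 (0.76), Morc3 (0.83), Fnbp4 (0.98) and Pnn (1.00), of which Ddx17 is an RNA helicase and Pnn a nuclear speckle protein, had adjusted p from 0.0547 to 0.0713 by limma. Dbp had an interaction of 0.63 (adjusted p = 0.33 by limma), with sham means of 67.8 FPKM under vehicle and 90.5 FPKM under the late course. Without UUO vehicle 4, 35 genes passed, and without UUO vehicle 2 there were 8. Without sham late 2 there were 2, and 3 passed without sham vehicle 2, sham vehicle 3, sham late 1, sham late 4, UUO late 1 or UUO late 2.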

How the data were processed

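RNA of left kidneys was extracted with Trizol and made into libraries with a stranded kit, per the labels' protocols. The submitters' processing notes name cutadapt, HISAT2, StringTie and the build GRCm38, with versions not given in the sources used here. The deposited tables hold FPKM of genes and of transcripts, and 0 sample columns were left out. The highest group mean of a gene was never below 0.5002 FPKM. A line emptied in each table is not used here. Columns were matched to groups by the hyphenated numbers in the sample titles; for sham vehicle and UUO vehicle those numbers, without the hyphen, also read as library names of other samples. Of 14407 gene IDs, 14385 were in GENCODE M21 and 13209 at the same locus.

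FPKM are not counts, so no count test was run. Depth was sought from the value of 1 fragment in transcript FPKM, and 3 ways of scoring it picked the same value in 3 of 8 libraries. A depth would have rested on the range searched, so none is given.

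Log2(FPKM + 1) values were fitted with limma 3.58.1 in R 4.3.3, with a mean-variance trend, two-sided tests and Benjamini-Hochberg adjustment over all tested genes. The fit was run on simulated data with independent noise for each gene. Those data held no library-wide shift and no switching transcript, so they do not test the calls made here. Where fewer than 5 genes passed in a direction, the 10 with the smallest p and a mean of at least 5 FPKM were named, beside a fixed panel and up to 4 members a list. Clock genes beyond those 4, and Wt1, Synpo, Zfp708 and Gm28557, were named after their values were seen. The members and lists were chosen with earlier results of these data known. An item on the clock list is not reported here and was left out of that list. Alternatives covered the pseudocount, filter, scaling, spread, replicate block and each library left out, and 2 were added after seeing the data. Promoters came from RefSeq on GRCm38.p6.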

Additional observations from a re-analysis of the deposited data

Results flagged for a closer look

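Single libraries stood apart from the other 3 of their group in 8 of 178 groups examined, and chance flags about 1 in 20. Klf9 was at 32.3 FPKM in UUO vehicle 4, and the next value was 22.6 FPKM. Adgre1 was at 24.3 FPKM in UUO late 4, and the next was 18.1 FPKM. Summed over lists, UUO vehicle 3 had 179 FPKM of B and plasma cell genes, with the next at 49.8 FPKM, and 251 FPKM of fat genes, with the next at 41.8 FPKM. In that library the B cell receptor gene Cd79a was at 45.3 FPKM and the fat gene Cfd at 204 FPKM. UUO late 4 had 175 FPKM of neutrophil genes, with the next at 54.8 FPKM. UUO vehicle 2 had 508 FPKM of NF-kB and inflammasome genes and 1350 FPKM of endoplasmic reticulum stress genes, with the next at 446 and 1210 FPKM. UUO late 3 had the lowest sum of immediate early genes, 868 FPKM, with the next at 1080 FPKM.

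By the limma interaction, late minus vehicle differed between UUO and sham libraries for Nphs1 (0.953), Appl2 (0.80), Micu3 (1.27), Zfp708 (2.22) and Gm28557 (-0.915). These are on the log2(FPKM + 1) scale, where the median interaction over all tested genes was 0.14. How many genes passed depended on the libraries and settings used, and the causes were not tested.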

How the results depend on the processing

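UUO late against UUO vehicle gave 3 genes past the threshold, and 0 to 7 with each library left out. It gave 16 with the spread from all 24 libraries and 0 with the replicate block, where 933 genes had an unadjusted p under 0.05. Added after seeing the data, leaving out UUO late 4 and UUO vehicle 1 together gave 11, and leaving out genes with a switching transcript gave 0. The latter takes out all 3 genes past the threshold by its rule, so it does not test them. Deviations of same-numbered libraries correlated at 0.148, -0.0749, -0.00419 and 0.132, and 1 of 4 correlated best with its own number, so the block rests on a shared number alone. For UUO late and UUO early these were 0.0388, 0.267, 0.212 and 0.444, not all over 0.1, and 2 of 4 correlated best with their own number. UUO late against UUO early gave 0 to 9 with each library left out, 5 at the same summed FPKM and 0 with the replicate block, where 916 genes had an unadjusted p under 0.05. The interaction gave 2 to 35 with each library left out, 8 at a pseudocount of 0.1, 1 with a filter of 5 FPKM and 2 with the replicate block. Some genes that missed the threshold changed sign. At the same summed FPKM Adora2a was 0.026 and Ccl2 0.016, and with median-of-ratios scaling Lcn2 was -0.049. Without UUO late 4 and UUO vehicle 1 together, the log2 difference was Nt5e 0.035, Lcn2 -0.35, Fn1 -0.13, Tgfb1 -0.035, Adgre1 -0.060, Ccl2 0.17, Slc34a1 0.18, Lrp2 0.19. With each library left out it ran over -0.13 to 0.083 for Adora2a, -0.095 to 0.84 for Aqp2, -0.24 to 0.20 for Ccl2, -0.41 to 0.15 for Col1a1, -0.45 to 0.046 for Col3a1, -0.17 to 0.58 for Egf, -0.019 to 0.47 for Fn1, -0.21 to 0.25 for Lcn2, -0.44 to 0.069 for Lrp2, -0.069 to 0.26 for Tgfb1. Medians of the injury, chemokine and adenosine lists changed sign with the scaling. The causes were not tested. Without counts, no interval for depth can be given.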
